A study of Homo sapiens with 6 samples.

Results

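The lysosomal enzymes, lysosomal membrane proteins and subunits of the vacuolar proton pump (V-ATPase) were followed in AGS, an established line of human gastric adenocarcinoma cells, after indomethacin. The members were 41 genes chosen by name, of 60604 genes read, and all 41 had a row in the deposited count tables. They comprised 8 proteases, 7 glycosidases, 3 enzymes of sulfatide and lipid breakdown, 2 lumenal lipid-binding proteins, 5 membrane proteins, 6 subunits of the membrane sector V0, 8 subunits of the catalytic sector V1 and 2 accessory proteins. Of these, 39 had enough reads to be tested.

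Total RNA was sequenced in 6 libraries. The 3 indomethacin libraries came from AGS cells kept for 24 h in 0.5 mM indomethacin, which inhibits cyclooxygenases and belongs to the non-steroidal anti-inflammatory drugs, and the 3 control libraries from AGS cells given none, with no time stated. All libraries came from the same line, and nothing in the labels says that libraries of a group were separate cultures, so the p-values measure only the spread between these libraries, which may be technical. The series title asks about sirtuin 3 as a shared target of such drugs in gastric cells.

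The lysosome degrades proteins, glycans and lipids in an acid lumen. Its hydrolases are made in the endoplasmic reticulum, most are tagged with mannose 6-phosphate, and they work at the low pH that the V-ATPase maintains by driving protons through V0 with ATP hydrolysed in V1. Many genes of both classes carry a short palindromic box near their start (the CLEAR element), which the transcription factors TFEB, TFE3 and MITF bind. Cell stress, nutrient state and lysosomal damage are known to alter this programme in many cell types.

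Libraries held 17535435 to 20094302 counts with indomethacin and 20983189 to 23221077 counts without it. By these totals, 3 counts, taken as the floor of detection, lay between 0.129 and 0.171 CPM (counts scaled to a common library size). The CPM values given below carry a further scaling factor per library, with which 3 counts in indomethacin replicate 3 were 0.180 CPM. Epithelial keratin, claudin and EPCAM transcripts summed to 2880 to 3190 CPM in indomethacin libraries and 3223 to 3716 CPM in control libraries. The 4 markers of blood cells summed to 3.37 to 4.44 CPM with indomethacin and 3.08 to 4.26 CPM in control libraries. That sum was almost all CSF1R, with 194 counts with indomethacin and 220 in control libraries. In the same order, PTPRC had 5 and 15 counts, CD14 8 and 4, and CD68 7 and 2. The 3 markers of fibroblasts summed to 9.29 to 11.1 CPM with indomethacin and 4.06 to 6.43 CPM in control libraries, where COL1A2 and DCN were at 0. The 2 markers of endothelium summed to 0.198 to 0.427 CPM with indomethacin and 0.0426 to 0.294 CPM in control libraries, where CDH5 was at 0. Single epithelial markers differed in direction, KRT8 (1144 ± 57.4 CPM with indomethacin, 1670 ± 154 CPM in control cells) and EPCAM having fallen and CLDN4 (323 ± 18.9 CPM with indomethacin, 99.4 ± 20.4 CPM in control cells) having risen, while KRT18 and KRT19 were not called. The fibroblast sum was almost all COL1A1, with 582 counts with indomethacin and 325 in control libraries, beside 1 count of COL1A2 and 6 of DCN. The part of these markers in the results was not tested. The labels name the AGS line alone and no other cell type. In RNA from whole cultures of a line, a large change in some cells and a smaller change in all cells cannot be told apart.

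Of the 30 members with an entry in RefSeq's promoter table (GRCh38.p14, 250 bases before to 50 bases after the gene start), 9 held the box TCACGTG on either strand, namely ATP6V0B, ATP6V0D1, ATP6V1G1, CTSA, CTSD, GAA, LAMP1, MCOLN1 and NEU1. The stretches of the 5 that passed the test of differential expression are given because they show how close to the start, and how often, the box occurs. Capitals mark the box, the final A is in capitals where it makes the palindrome TCACGTGA, and all stretches read 5′ to 3′ along the strand of the gene.
MCOLN1, chr19:7522563-7522623, plus strand: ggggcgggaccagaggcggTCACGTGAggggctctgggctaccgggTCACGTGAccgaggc
GAA, chr17:80101485-80101575, plus strand: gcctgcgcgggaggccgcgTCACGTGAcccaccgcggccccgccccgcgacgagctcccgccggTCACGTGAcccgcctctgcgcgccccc
ATP6V0B, chr1:43974883-43974946, plus strand: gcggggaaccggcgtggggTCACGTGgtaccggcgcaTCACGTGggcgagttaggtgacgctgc
CTSA, chr20:45891273-45891334, plus strand: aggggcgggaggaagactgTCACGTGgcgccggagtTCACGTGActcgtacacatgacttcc
LAMP1, chr13:113297027-113297122, plus strand: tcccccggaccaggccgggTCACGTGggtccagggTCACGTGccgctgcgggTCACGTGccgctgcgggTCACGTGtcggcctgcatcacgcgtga

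Counted to the core CACGTG, the boxes lay 41 and 14 bases before the RefSeq start of MCOLN1, 76 and 31 bases before that of GAA, 57 and 39 bases before that of ATP6V0B, and 42 and 25 bases before that of CTSA. LAMP1 held the most, with 4 boxes between 192 and 142 bases before its start and a further box 28 bases before it. Among all 27305 genes of the table, CACGTG occurred in a promoter of 8.77%, TCACGTG of 4.49% and TCACGTGA of 1.18% (7.26%, 3.71% and 0.98% of its 35116 promoters), each searched on both strands and each longer box containing the shorter. Among the 30 members, the shares were 30% for CACGTG, 30% for TCACGTG and 20% for TCACGTGA. The 9 members with TCACGTG had log2 fold changes (indomethacin over control) between -0.36 and 0.59, with a median of 0.20, 3 having risen and 2 having fallen. The 19 tested members whose window lacked it ranged from -2.72 to 0.83, with a median of -0.46, and 5 had risen and 11 fallen. A match is a description of letters in this window and not a binding site.

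With indomethacin, 11 of the 39 tested members rose and 16 fell (p under 0.05 after Benjamini-Hochberg adjustment, from the quasi-likelihood test of edgeR). Among all 17200 genes tested, 61.6% were called in either direction, 30.6% as higher and 31.0% as lower, so calls were common throughout the transcriptome, and the members' shares were 69.2%, 28.2% and 41%. The values of 28 members (71.8%) did not overlap between groups, against 67.0% of all genes. The median log2 fold change of the members was -0.08, and 0.04 with upper-quartile scaling, a setting that moved the median of all genes from 0.04 to 0.16. Of the 39 tested members, 7 were lower and 2 higher by at least 2-fold. Among all 17200 genes tested, 2676 were lower (15.6%) and 2999 higher (17.4%) by that much. Falls of this size were thus about as common among the members as among all genes, while rises were rarer.

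**Figure D1:**
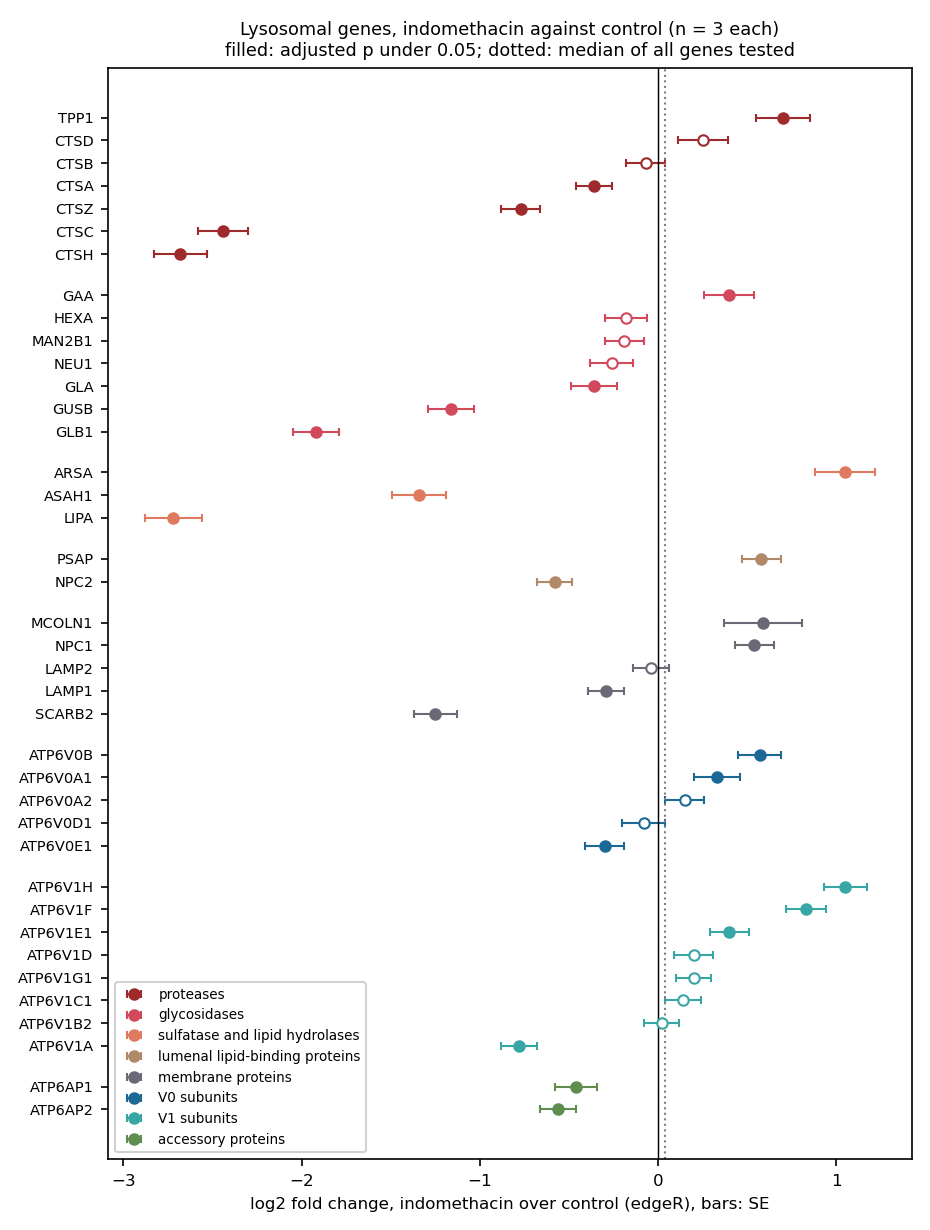
Log2 fold change of each tested lysosomal gene (x axis, indomethacin over control, n = 3 each, bars are SE) with genes in blocks by role (y axis) and filled points for adjusted p under 0.05. Hydrolases spread from -2.72 to 1.05, while V-ATPase subunits lie between -0.78 and 1.05. The dotted line is the median of all genes tested.

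Among the proteases, 4 of 7 tested fell, 1 rose and 2 were not called. A pair of cysteine proteases fell most. CTSH encodes cathepsin H, an aminopeptidase (chr15:78921058-78949574, hg38, minus strand). It had 33.6, 32.2 and 44.4 CPM in the indomethacin libraries, against 193, 246 and 266 CPM in the control libraries. CTSC encodes cathepsin C, the dipeptidyl peptidase that activates serine proteases of immune granules (chr11:88265069-88359684, minus strand). Its levels were 40.3, 29.8 and 30.0 CPM with indomethacin and 164, 189 and 191 CPM in control cells. Every indomethacin library lay far below every control library for both genes. The fitted falls were 6.40-fold for CTSH (log2 fold change -2.68, SE 0.15, edgeR adjusted p = 5.4e-09) and 5.43-fold for CTSC (-2.44, SE 0.14, edgeR adjusted p = 3.9e-09).

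CTSZ, the carboxypeptidase cathepsin Z, had 28.6, 27.5 and 29.6 CPM with indomethacin and 42.8, 52.2 and 51.4 CPM in control cells. It fell by 0.77 on the log2 scale (SE 0.11, edgeR adjusted p = 4.7e-05). Of its annotated exonic bases, 31.7% are shared with NELFCD on the opposite strand, which had 4 counts in all libraries together. CTSA, a serine carboxypeptidase that also protects GLB1 and NEU1 in a complex, averaged 55.8 ± 3.30 CPM with indomethacin and 71.4 ± 4.66 CPM in control cells (SD, n = 3 each). Its groups did not overlap, and it shares 21.5% of its exonic bases with genes that had 2649 counts beside its own 7907. Its fall by 0.36 was small (SE 0.10, edgeR adjusted p = 0.0085) and missed the threshold with upper-quartile scaling (adjusted p = 0.055).

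The main endopeptidases of the lumen did not follow CTSH and CTSC. CTSB, cathepsin B, had 187, 189.8 and 156 CPM with indomethacin and 169, 188 and 202 CPM in control cells, overlapping ranges (log2 fold change -0.07, SE 0.11, edgeR adjusted p = 0.63). CTSD, the aspartic protease cathepsin D, had 97.0, 114 and 84.0 CPM with indomethacin and 67.9, 87.8 and 92.8 CPM in control cells. Of its exonic bases, 48.0% are shared with genes that had 115 counts in all. Its groups also overlapped (0.25, SE 0.14, edgeR adjusted p = 0.14), and the call was gained without indomethacin replicate 3 (adjusted p = 0.044). Per kilobase of annotated exon, the ratio of CTSB to CTSC was 12.8 ± 2.08 with indomethacin and 2.42 ± 0.0689 in control cells (SD, n = 3 each). The length is that of all annotated exons of a gene, which can exceed the expressed transcript.

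TPP1, a tripeptidyl peptidase whose loss causes a childhood neuronal storage disease, was the only protease that rose. It had 14.7, 13.6 and 11.6 CPM with indomethacin, against 8.27, 8.34 and 8.05 CPM in control cells, with no overlap (log2 fold change 0.70, SE 0.15, edgeR adjusted p = 0.001). CTSL, cathepsin L, was not measurable in either group, with 1, 1 and 3 counts with indomethacin and 0 in each control library, at or under the floor of 3 counts per library. No fold is given for it.

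Among the glycosidases, 3 of 7 fell, 1 rose and 3 were not called. GLB1, lysosomal beta-galactosidase, which removes galactose from gangliosides and keratan sulfate, lies at chr3:32996609-33097202 on the minus strand. It had 57.0, 49.9 and 44.2 CPM with indomethacin, against 166, 201 and 208 CPM in control cells. GUSB, beta-glucuronidase, had 14.2, 12.9 and 16.4 CPM with indomethacin and 29.6, 33.7 and 33.6 CPM in control cells. All indomethacin values of both genes were below all control values. GLB1 fell 3.8-fold (log2 fold change -1.92, SE 0.13, edgeR adjusted p = 2.2e-08), and GUSB fell 2.23-fold (SE 0.13, edgeR adjusted p = 3.1e-06). The tables hold 19 GUSB pseudogenes with 5880 counts, against 2948 counts for GUSB, so its level is uncertain wherever reads could be assigned to either.

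GLA, alpha-galactosidase A, had 25.1, 29.3 and 32.1 CPM with indomethacin and 36.7, 32 and 41.8 CPM in control cells. The ranges overlapped by a narrow margin, and the fall by 0.36 (SE 0.13, edgeR adjusted p = 0.03) lost its call without control replicate 3 (adjusted p = 0.11), indomethacin replicate 1 (0.079) or indomethacin replicate 2 (0.063). GAA, acid alpha-glucosidase, which degrades glycogen, was the glycosidase that rose, with 23.7, 31.1 and 22.1 CPM with indomethacin and 20.5, 18.6 and 19.1 CPM in control cells. Its rise by 0.40 (SE 0.14, edgeR adjusted p = 0.022) was 0.24 without indomethacin replicate 2 (edgeR adjusted p = 0.15). It also lost its call without control replicate 1 (adjusted p = 0.058), 2 (0.11) or 3 (0.092).

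HEXA, the alpha chain of beta-hexosaminidase, had 34.9, 29.4 and 28.5 CPM with indomethacin and 36.6, 33.1 and 35.3 CPM in control cells (log2 fold change -0.18, SE 0.12, edgeR adjusted p = 0.2). MAN2B1, lysosomal alpha-mannosidase, had 31.1, 35.9 and 33.6 CPM with indomethacin and 34.3, 39.9 and 40.5 CPM in control cells (-0.19, SE 0.11, edgeR adjusted p = 0.16). Both ranges overlapped. NEU1, the lysosomal sialidase, had 26.7, 29.7 and 28.6 CPM with indomethacin and 30.4, 34.7 and 37.0 CPM in control cells, with every indomethacin library below every control library, but was not called (-0.26, SE 0.12, edgeR adjusted p = 0.06). The call was gained for HEXA without indomethacin replicate 1 (adjusted p = 0.043), and for MAN2B1 (0.046) and NEU1 (0.018) without control replicate 1.

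Some of these enzymes act as partners in a complex, and their ratios were taken per kilobase of exon. GLB1 stood at 1.80 ± 0.188 times the level of its protector CTSA with indomethacin and at 5.33 ± 0.402 times in control cells. Against NEU1, the other enzyme of that complex, GLB1 stood at 1.99 ± 0.341 times with indomethacin and 6.24 ± 0.189 times in control cells. Neither of these ratios overlapped between groups (SD, n = 3 each). Their absolute size depends on the annotated exon lengths, so only the difference between groups is read. In CPM, not scaled by length, GLB1 averaged 50.4 and CTSA 55.8 with indomethacin, and GLB1 191 and CTSA 71.4 in control cells.

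All 3 enzymes of sulfatide and lipid breakdown were called, 2 as lower and 1 as higher. LIPA encodes lysosomal acid lipase, which hydrolyses cholesteryl esters and triglycerides taken up with lipoproteins (chr10:89213569-89414557, minus strand). It had 9.44, 7.34 and 6.29 CPM with indomethacin, against 57.5, 46.2 and 49.4 CPM in control cells, the lowest fold change of any member at 6.60-fold (log2 fold change -2.72, SE 0.16, edgeR adjusted p = 5.2e-09). Of its exonic bases, 6.0% are shared with 3 genes that had 5931 counts, against 3770 counts for LIPA. ASAH1, acid ceramidase, had 58.0, 42.8 and 36.8 CPM with indomethacin and 125, 107 and 116 CPM in control cells, with no overlap (-1.34, SE 0.15, edgeR adjusted p = 3.1e-06). ARSA, arylsulfatase A, which removes sulfate from sulfatide, moved the other way. It had 13.7, 18.4 and 14.1 CPM with indomethacin and 7.63, 6.34 and 8.43 CPM in control cells, with no overlap (1.05, SE 0.17, edgeR adjusted p = 0.0001).

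The lumenal lipid-binding proteins moved apart. PSAP, the precursor of the saposins that present sphingolipids to their hydrolases, was the most abundant member per kilobase of exon in both groups (chr10:71816298-71851325, minus strand). It had 946, 966 and 979 CPM with indomethacin, against 609, 632 and 698 CPM in control cells (log2 fold change 0.58, SE 0.11, edgeR adjusted p = 0.00041). NPC2, which hands cholesterol in the lumen to NPC1, had 90.8, 99.6 and 100.5 CPM with indomethacin and 133, 148 and 155 CPM in control cells (-0.58, SE 0.10, edgeR adjusted p = 0.00025). Neither gene's groups overlapped.

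Of the 5 membrane proteins, 2 rose, 2 fell and 1 was not called. NPC1, the membrane protein that exports cholesterol from the lysosome, had 81.8, 67.1 and 77.8 CPM with indomethacin, against 52.6, 51.3 and 52.3 CPM in control cells (log2 fold change 0.54, SE 0.11, edgeR adjusted p = 0.00058). Per kilobase of exon, the ratio of NPC1 to NPC2 was 0.208 ± 0.0302 with indomethacin and 0.0958 ± 0.00840 in control cells (SD, n = 3 each). SCARB2, the receptor that carries glucocerebrosidase to the lysosome (chr4:76158737-76234536, minus strand), had 149.6, 113 and 114 CPM with indomethacin and 297, 295 and 303 CPM in control cells. It fell by 1.25 on the log2 scale (SE 0.12, edgeR adjusted p = 9.1e-07), and neither NPC1 nor SCARB2 overlapped between groups.

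The 2 abundant glycoproteins of the lysosomal membrane moved little. LAMP1 had 122, 127 and 132 CPM with indomethacin and 152, 146 and 169 CPM in control cells, without overlap (log2 fold change -0.29, SE 0.10, edgeR adjusted p = 0.023). LAMP2 had 131, 123 and 124 CPM with indomethacin and 126, 132 and 129 CPM in control cells, with overlap (-0.04, SE 0.10, edgeR adjusted p = 0.76). MCOLN1, the cation channel mucolipin 1 that releases lysosomal calcium, was the tested member with the lowest level per kilobase of exon in both groups, with 3.75, 5.31 and 5.10 CPM with indomethacin and 2.89, 3.19 and 3.28 CPM in control cells. It rose by 0.59 (SE 0.22, edgeR adjusted p = 0.031). LAMP1 missed the threshold without control replicate 3 (edgeR adjusted p = 0.072) or indomethacin replicate 2 (0.063), and MCOLN1 without control replicate 1 (0.11), 2 (0.087) or 3 (0.067) or indomethacin replicate 2 (0.12) or 3 (0.079).

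**Figure D2:**
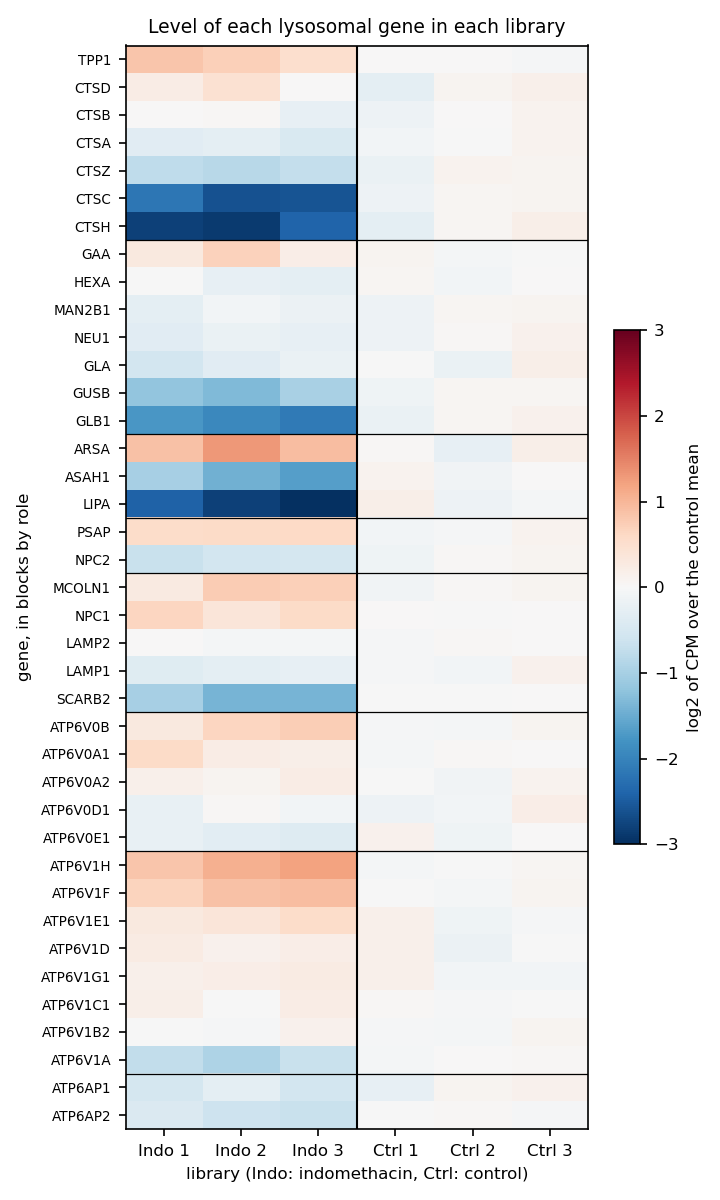
Level of each tested lysosomal gene in each library, as log2 of its CPM over the mean of the control libraries (colour scale), with the 3 indomethacin libraries left of the 3 control libraries and genes in blocks by role. CTSC, CTSH, GLB1 and LIPA are dark blue in every indomethacin library, whereas LAMP2 and ATP6V1B2 are near white throughout.

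The hydrolases were next set against the V-ATPase subunits. Of 17 hydrolases tested (proteases, glycosidases and the 3 lipid enzymes), 9 fell, 3 rose and 5 were not called, with a median log2 fold change of -0.36. Of 13 V-ATPase subunits tested, 2 fell, 5 rose and 6 were not called, with a median of 0.20. The share of genes that fell was 52.9% of the hydrolases and 15.4% of the subunits, beside 31.0% of all genes. The median difference was -0.55, and it stayed between -0.63 and -0.44 when any library was left out. The median of all genes tested was 0.04. With the 2 accessory proteins added to the subunits, 5 of 15 tested genes rose and 4 fell, with a median of 0.15. The share that fell was then 26.7%, near the 31.0% of all genes.

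Summed over the 18 hydrolases, 752, 752 and 671 CPM were measured with indomethacin, against 1256, 1393 and 1477 CPM in control cells. The sum over the 14 V-ATPase subunits was 810.5, 823 and 879.9 CPM with indomethacin and 807, 754 and 807 CPM in control cells. The hydrolase sum with indomethacin was thus 52.7% of that in control cells (725 ± 46.9 CPM with indomethacin, 1376 ± 112 CPM in control cells, SD, n = 3 each), without overlap. The V-ATPase sum was 106% (838 ± 36.9 CPM with indomethacin, 789 ± 30.7 CPM in control cells), with the lowest indomethacin library only just above the highest control libraries. The ratio of hydrolases to V-ATPase was 0.928, 0.914 and 0.763 with indomethacin and 1.56, 1.85 and 1.83 in control cells.

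In CPM, not scaled by length, 5 enzymes held most of this difference. CTSH accounted for 30.5% of the summed hydrolase difference, CTSC for 22.7%, GLB1 for 21.7%, ASAH1 for 10.8% and LIPA for 6.7%, together 92.3%. These shares depend on transcript length. Per kilobase of annotated exon, GLB1 differed most, with 11.6 CPM with indomethacin and 44.2 CPM in control cells. In the same order, CTSH had 2.67 and 17.1, LIPA 1.57 and 10.4, CTSC 1.34 and 7.30, and ASAH1 2.98 and 7.55. These 5, picked for their falls in CPM, summed to 174 ± 21.1 CPM with indomethacin and 775 ± 64.0 CPM in control cells. The other 13 hydrolases summed to 554, 590.3 and 509 CPM with indomethacin and 551, 605 and 646 CPM in control cells, with overlap between groups. That sum was 91.7% of the control mean. Since the 5 were picked for their falls in these data, a smaller difference in the rest was fixed beforehand. Among the rest, CTSZ, GUSB, CTSA and GLA were still called lower, and TPP1, GAA and ARSA higher.

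**Figure D3:**
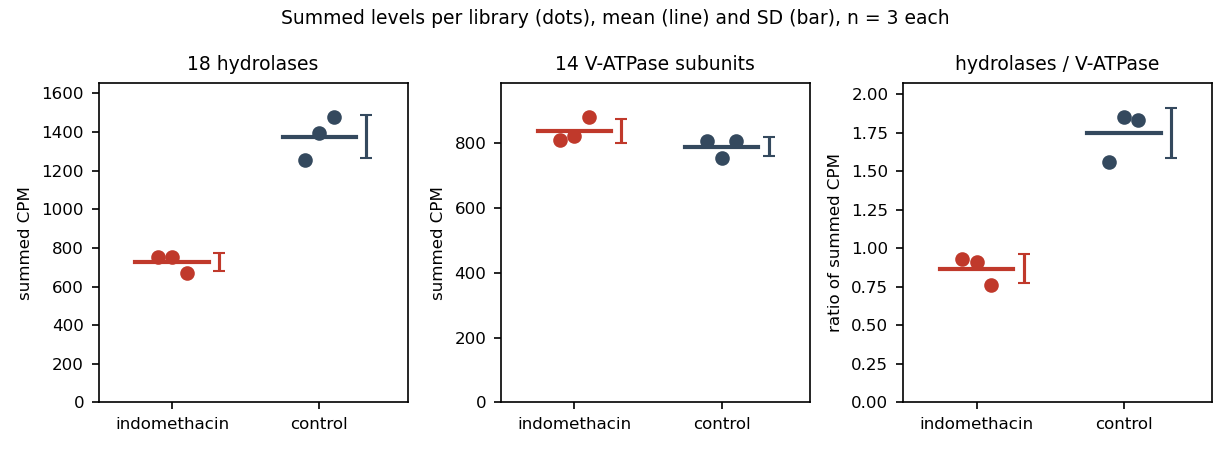
Summed CPM of the 18 hydrolases (left), of the 14 V-ATPase subunits (middle) and their ratio (right) in each library (dots), with the group mean (line) and SD (bar, n = 3 each). The hydrolase sum was 725 CPM with indomethacin and 1376 CPM in control cells, while the V-ATPase sum was 838 CPM with indomethacin and 789 CPM in control cells.

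Of the V0 sector, which forms the proton path in the membrane, 2 of 5 tested subunits rose and 1 fell. ATP6V0B, a proteolipid of the rotating ring, had 69.8, 89.7 and 94.7 CPM with indomethacin, against 56.2, 54.9 and 60.4 CPM in control cells (log2 fold change 0.57, SE 0.12, edgeR adjusted p = 0.0011). ATP6V0A1, an isoform of the stator subunit a, had 27.6, 21.7 and 20.9 CPM with indomethacin and 18, 19.1 and 18.8 CPM in control cells (0.33, SE 0.13, edgeR adjusted p = 0.044). ATP6V0E1, the small subunit e, fell, with 99.2, 92.8 and 89.0 CPM with indomethacin and 126, 105 and 116 CPM in control cells (-0.30, SE 0.11, edgeR adjusted p = 0.024). None of these 3 overlapped between groups.

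The other subunits of V0 overlapped. ATP6V0A2, a second isoform of subunit a, had 31.0, 29.6 and 33.0 CPM with indomethacin and 27.7, 26.3 and 30.3 CPM in control cells (log2 fold change 0.15, SE 0.11, edgeR adjusted p = 0.27). ATP6V0D1, subunit d, which couples the ring to the central stalk, had 49.7, 59.4 and 54.8 CPM with indomethacin and 52.0, 54.5 and 66.9 CPM in control cells (-0.08, SE 0.12, edgeR adjusted p = 0.58). ATP6V0C, the main proteolipid of the ring, had 3, 8 and 4 counts with indomethacin and 2, 9 and 2 counts in control cells, a ratio of 1.3 after scaling (95% counting interval 0.577 to 2.97). Of its exonic bases, 76.3% are shared with 2 other genes of the annotation that had 0 counts, and 4 of its pseudogenes held 203 counts, so the level of ATP6V0C cannot be read from these tables. With fewer libraries ATP6V0A1 missed the threshold at log2 fold changes of 0.25 without control replicate 1 (edgeR adjusted p = 0.19), 0.31 without control replicate 2 (0.13), 0.30 without control replicate 3 (0.13) and 0.17 without indomethacin replicate 1 (0.28). ATP6V0E1 missed it at -0.29 without control replicate 1 (edgeR adjusted p = 0.052) and -0.30 without indomethacin replicate 2 (0.07).

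Of the V1 sector, which hydrolyses ATP in the cytosol, 3 of 8 subunits rose and 1 fell. ATP6V1H, subunit H, which bridges the sectors and holds back ATP hydrolysis when V1 is detached (chr8:53715543-53843558, minus strand), rose most. It had 58.9, 69.4 and 75.6 CPM with indomethacin, against 31.8, 32.5 and 34.4 CPM in control cells (log2 fold change 1.05, SE 0.12, edgeR adjusted p = 3.0e-06). ATP6V1F, subunit F of the central stalk, had 39.6, 46.1 and 47.3 CPM with indomethacin and 24.5, 23.9 and 26.2 CPM in control cells (0.83, SE 0.11, edgeR adjusted p = 2.2e-05). Of its exonic bases, 20.6% are shared with KCP on the opposite strand, which had 960 counts in all beside 4173 for ATP6V1F. ATP6V1E1, subunit E of the peripheral stalks, had 80.4, 84.5 and 96.6 CPM with indomethacin and 73.6, 60.4 and 63.9 CPM in control cells (0.40, SE 0.11, edgeR adjusted p = 0.0074), and it missed the threshold with control replicate 2 left out (0.069). For all 3, every indomethacin library lay above every control library.

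ATP6V1A, the catalytic subunit A that binds and splits ATP (chr3:113747033-113812056, plus strand), fell. It had 89.8, 78.8 and 94.0 CPM with indomethacin, against 145, 152 and 153 CPM in control cells, with no overlap (log2 fold change -0.78, SE 0.10, edgeR adjusted p = 1.9e-05). Its partner in the alternating ring, the B subunit isoform ATP6V1B2, had 56.4, 55.8 and 62.2 CPM with indomethacin and 55.9, 55.1 and 60.5 CPM in control cells (0.02, SE 0.10, edgeR adjusted p = 0.85). The ratio of ATP6V1A to ATP6V1B2 per kilobase of exon was 2.43, 2.15 and 2.30 with indomethacin and 3.95, 4.21 and 3.86 in control cells, and the ratio of ATP6V1H to ATP6V1A was 0.658, 0.883 and 0.806 with indomethacin and 0.220, 0.214 and 0.225 in control cells. Neither ratio overlapped between groups.

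ATP6V1C1, subunit C, which joins the stator to V0, had 66.1, 57.6 and 68.2 CPM with indomethacin and 59.9, 56.7 and 58.0 CPM in control cells (log2 fold change 0.14, SE 0.10, edgeR adjusted p = 0.27). ATP6V1D of the central stalk averaged 72.7 ± 3.19 CPM with indomethacin and 63.4 ± 7.27 CPM in control cells (0.20, SE 0.11, edgeR adjusted p = 0.14). ATP6V1G1 of the peripheral stalks averaged 68.2 ± 2.20 CPM with indomethacin and 59.5 ± 5.45 CPM in control cells (0.20, SE 0.10, edgeR adjusted p = 0.12), without overlap between its groups. With upper-quartile scaling ATP6V1C1 (adjusted p = 0.048), ATP6V1D (0.026), ATP6V1G1 (0.02) and ATP6V0A2 (0.048) passed too, and 9 subunits were then called higher in place of 5. Without control replicate 2, 3 were.

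The accessory proteins ATP6AP1, which helps to assemble V0, and ATP6AP2, also known as the prorenin receptor, both fell. ATP6AP1 had 52.5, 62.0 and 51.6 CPM with indomethacin and 64.2, 81.0 and 82.9 CPM in control cells (log2 fold change -0.46, SE 0.12, edgeR adjusted p = 0.0053). ATP6AP2 had 65.4, 57.5 and 55.2 CPM with indomethacin and 87.4, 90.6 and 85.2 CPM in control cells (-0.56, SE 0.10, edgeR adjusted p = 0.00034). Neither gene's groups overlapped.

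Per kilobase of exon, the V-ATPase subunits spanned from 1.81 ± 0.101 CPM (ATP6V0A2) to 58.2 CPM with indomethacin and from 1.63 ± 0.119 CPM to 71.7 ± 6.43 CPM in control cells. ATP6V0E1 (58.2 ± 3.20 CPM per kilobase) and ATP6V1F (58.2 ± 5.47) shared the top with indomethacin, whereas in control cells ATP6V0E1 led ATP6V1F (32.6 ± 1.6) and ATP6V1A (29.3 ± 0.883). ATP6V1A ranked 3 of 13 in control cells but stood level with ATP6V1D with indomethacin, both at 17.1 CPM per kilobase. ATP6V1H ranked 8 with indomethacin (13.3 ± 1.65) and 11 in control cells (6.44 ± 0.268). The lower end of the order was alike in both groups, with ATP6V0A1 and ATP6V0A2 last. ATP6V1B2 and ATP6V0D1, next to each other in both orders, did not differ beyond their spread (7.46 ± 0.455 and 6.70 ± 0.597 with indomethacin, 7.33 ± 0.375 and 7.09 ± 0.980 in control cells).

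**Figure D4:**
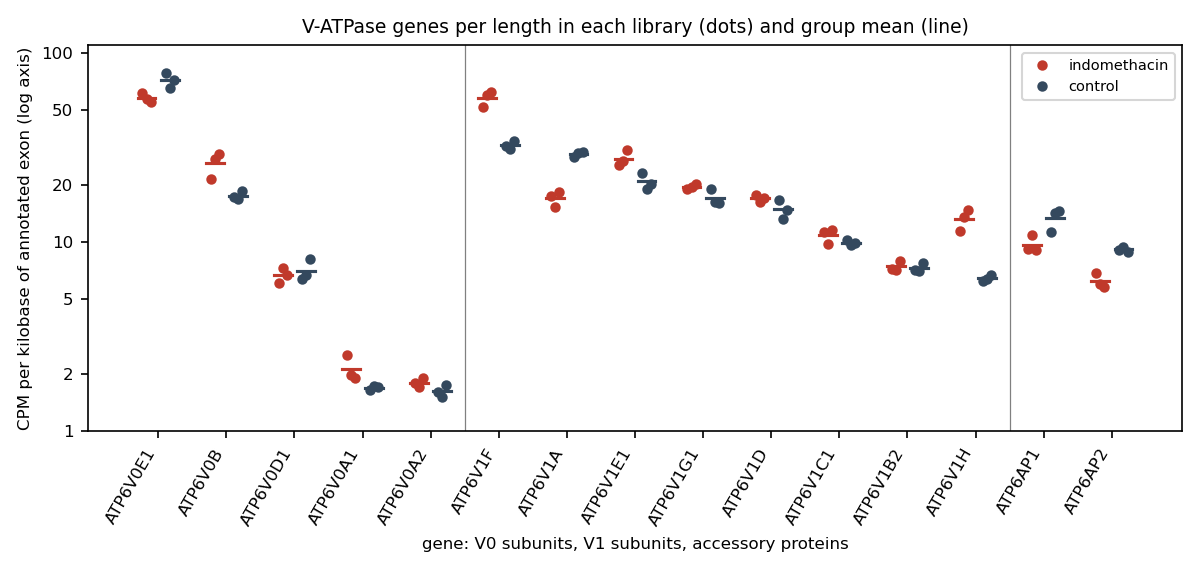
CPM per kilobase of annotated exon (log axis) of each tested V-ATPase gene in each library (dots, indomethacin left of control) with the group mean (line), in blocks of V0 subunits, V1 subunits and accessory proteins. ATP6V1A is at 17.1 with indomethacin and 29.3 in control cells, and ATP6V1H and ATP6V1F are higher in every indomethacin library.

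Some pump subunits have isoforms encoded outside the 41 genes. ATP6V0D2, the isoform of subunit d known from osteoclasts and renal epithelium, had 69, 90 and 127 counts with indomethacin, against 0, 1 and 1 counts in control cells (edgeR adjusted p = 2.0e-07). The ratio after scaling was 161 (95% counting interval 44.2 to 1338), wide because of the few control counts. ATP6V0D2 held 15.4%, 17.2% and 27.8% of the d subunit level per length with indomethacin and 0%, 0.216% and 0.194% in control cells. The size of this share depends on the annotated exon lengths, 2940 bases for ATP6V0D2 and 8156 for ATP6V0D1. In CPM, not scaled by length, ATP6V0D2 had 3.27, 4.47 and 7.61 with indomethacin, beside 49.7, 59.4 and 54.8 for ATP6V0D1. For subunit a, the share of ATP6V0A1 was 31.1 ± 5.46% with indomethacin and 25.5 ± 2.32% in control cells, and that of TCIRG1, the isoform a3, was 41.3 ± 6.98% with indomethacin and 46.9 ± 2.99% in control cells (SD, n = 3 each). Both of these shares overlapped between groups, and TCIRG1 was not called (edgeR adjusted p = 0.49). Among 15 tested isoforms and assembly factors that are no members, 5 rose and 3 fell, with a median log2 fold change of -0.05. The shares were 33.3% higher and 20% lower, beside 30.6% and 31.0% of all genes, so rises were about as common as among all genes. VMA21, an assembly chaperone of V0, fell (20.8 ± 1.17 CPM with indomethacin, 38.5 ± 1.79 CPM in control cells), and DMXL1, a factor that helps to join V1 to V0, rose (109.9 ± 3.97 CPM with indomethacin, 70.7 ± 5.33 CPM in control cells).

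Lysosomal hydrolases and cofactors outside the 41 were examined as a list. Of 30 tested, 20 fell, 1 rose and 9 were not called, with a median log2 fold change of -0.84, beside 0.04 over all genes tested. The share that fell was 66.7%, beside 31.0% of all genes, and the share that rose was 3.33%, beside 30.6%. GM2A, the activator that lifts ganglioside GM2 for hexosaminidase, had 10.7 ± 1.1 CPM with indomethacin and 57.3 ± 3.31 CPM in control cells (-2.42, SE 0.12, edgeR adjusted p = 1.8e-09). GALC, galactocerebrosidase, had 142 ± 10.8 CPM with indomethacin and 548 ± 39.9 CPM in control cells (-1.95, SE 0.11, edgeR adjusted p = 5.8e-09). PPT1, palmitoyl-protein thioesterase, had 40.7 ± 3.59 CPM with indomethacin and 126 ± 7.38 CPM in control cells (-1.64, SE 0.11, edgeR adjusted p = 2.4e-08). CPVL, a carboxypeptidase, had 31.4 ± 7.01 CPM with indomethacin and 165 ± 23.2 CPM in control cells (-2.39, SE 0.16, edgeR adjusted p = 2.0e-08, errors SD, n = 3 each). IDUA, the iduronidase of heparan and dermatan sulfate, was the gene that rose, with 7.4 ± 2.35 CPM with indomethacin and 3.01 ± 0.717 CPM in control cells (1.30, SE 0.26, edgeR adjusted p = 0.00064), and was named after its values were seen. Of its exonic bases, 13.2% are shared with SLC26A1 on the opposite strand, which had 712 counts in all beside 633 for IDUA. The part of SLC26A1 in this rise was not tested.

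Among 22 other tested membrane proteins, 6 rose and 5 fell (median log2 fold change 0.09). These shares, 27.3% and 22.7%, were below the 30.6% and 31.0% of all genes. LAMP3, a relative of LAMP1 induced in stress and in dendritic cells, had 58.2, 52.0 and 55.1 CPM with indomethacin, against 1.91, 3.15 and 2.90 CPM in control cells, a 20.6-fold rise (4.37, SE 0.17, edgeR adjusted p = 2.1e-10). It stands apart from LAMP1 and LAMP2, whose changes were small. OSTM1 and CLCN7, the subunits of the lysosomal chloride-proton exchanger, rose together, with 39.3 ± 3.65 and 47.0 ± 6.43 CPM with indomethacin, against 13.7 ± 0.583 and 21.8 ± 1.44 CPM in control cells. LAPTM4B, a transmembrane protein of late endosomes, fell (73.2 ± 4.91 CPM with indomethacin, 385 ± 11.8 CPM in control cells).

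Of 9 genes that tag hydrolases with mannose 6-phosphate or sort them, 4 fell and 2 rose (median log2 fold change -0.24). The shares were 44.4% lower and 22.2% higher, beside 31.0% and 30.6% of all genes. SORT1, sortilin, which carries several hydrolases and PSAP, had 63.4, 48.9 and 56.3 CPM with indomethacin, against 279, 296 and 299.8 CPM in control cells (-2.38, SE 0.12, edgeR adjusted p = 1.7e-09). GNPTAB, which encodes catalytic chains of the tagging enzyme, had 38.8 ± 4.44 CPM with indomethacin and 75.5 ± 5.21 CPM in control cells (-0.96, SE 0.11, edgeR adjusted p = 6.3e-06). The receptors for the tag moved in opposite directions. M6PR fell (70.3 ± 4.19 CPM with indomethacin, 112 ± 4.35 CPM in control cells), and IGF2R rose (199 ± 30.8 CPM with indomethacin, 105 ± 19.2 CPM in control cells).

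Of the transcription factors that bind the box shown above, TFE3 rose, with 46.8, 49.9 and 58.9 CPM with indomethacin, against 25.2, 30.6 and 30.1 CPM in control cells (log2 fold change 0.86, SE 0.12, edgeR adjusted p = 4.0e-05). TFEB fell, with 4.27, 6.10 and 6 CPM with indomethacin and 6.90, 8.13 and 8.29 CPM in control cells (-0.51, SE 0.19, edgeR adjusted p = 0.03). With control replicate 2, control replicate 3 or indomethacin replicate 1 left out, TFEB missed the threshold (edgeR adjusted p = 0.068, 0.073 and 0.096 in that order). MITF overlapped between groups, with 2.91 ± 0.810 CPM with indomethacin and 2.71 ± 0.0657 CPM in control cells (0.10, SE 0.26, edgeR adjusted p = 0.76), and TFEC had 1 count in all libraries together. Among all 11 tested genes of this list, which also holds regulators of these factors, 5 rose and 3 fell. These were 45.5% and 27.3% of the tested genes, beside 30.6% and 31.0% of all genes. FNIP1, which acts with folliculin on the Rag GTPases, had 160.3 ± 5.31 CPM with indomethacin and 62.6 ± 3.36 CPM in control cells, and the Rag GTPases RRAGA (104 ± 8.48 CPM with indomethacin, 39.6 ± 2.80 CPM in control cells) and RRAGC (20 ± 1.49 CPM with indomethacin, 8.80 ± 0.945 CPM in control cells) rose as well.

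A further list held 9 genes of the growth kinase complex mTORC1, its activator RHEB and the Ragulator scaffold that holds mTORC1 on the lysosome. Of these, 5 fell (55.6%, beside 31.0% of all genes) and 2 rose (22.2%, beside 30.6%), with a median log2 fold change of -0.39. MTOR itself had 69.0 ± 4.74 CPM with indomethacin and 115 ± 10.4 CPM in control cells (-0.74, SE 0.11, edgeR adjusted p = 4.3e-05). LAMTOR2 (25 ± 2.48 CPM with indomethacin, 41.8 ± 3.93 CPM in control cells) and LAMTOR4 (23.6 ± 1.46 CPM with indomethacin, 35.4 ± 2.64 CPM in control cells) of the Ragulator complex fell as well. RHEB, the GTPase that activates mTORC1, rose (61.0 ± 7.71 CPM with indomethacin, 41 ± 1.88 CPM in control cells).

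**Figure D5:**
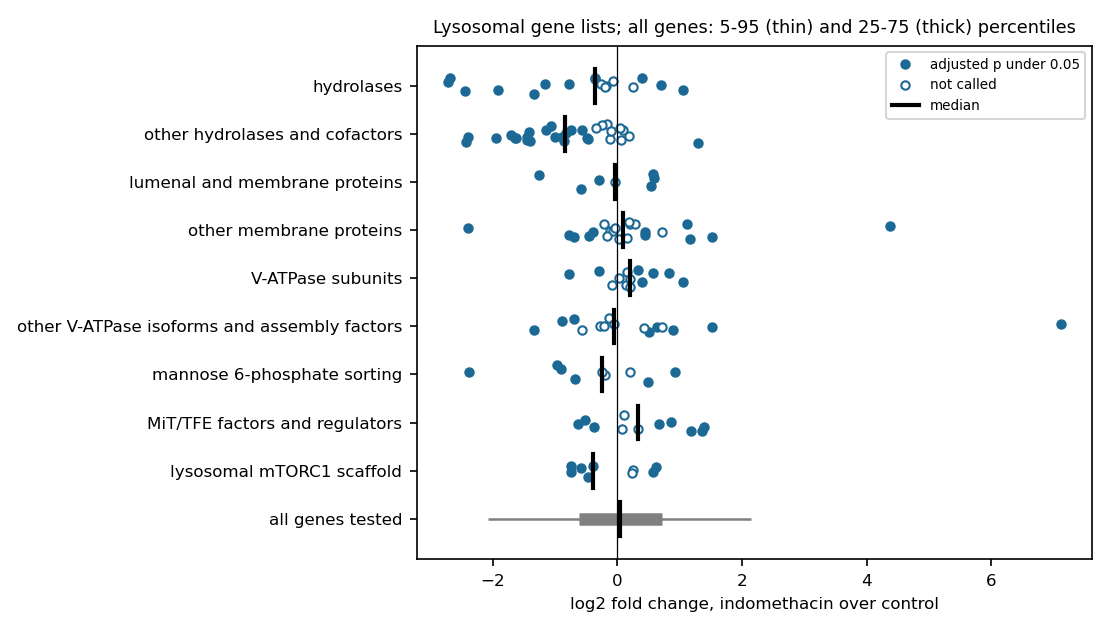
Log2 fold change (x axis, indomethacin over control) of each tested gene in 9 lysosomal lists (y axis), filled where adjusted p was under 0.05, with the median of each list as a bar and, at the bottom, the 5 to 95 and 25 to 75 percentiles of all genes tested. The medians are -0.36 for the hydrolases, -0.84 for other hydrolases and 0.20 for the V-ATPase subunits. LAMP3 and ATP6V0D2 lie far to the right.

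Spread within groups was larger with indomethacin, with a median coefficient of variation of 10.0% over the 39 tested members, against 7.60% in control cells. ASAH1 varied most with indomethacin (23.8%) and CTSH most in control cells (16.1%). Control replicate 3 was the highest of its group for 23 of 39 members and control replicate 1 the lowest for 19.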

How the data were processed

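Libraries of total RNA from 3 indomethacin and 3 control samples were grouped by the treatment each label names. Per the submitters' processing notes, bcl2fastq, FastQC 0.11.7, cutadapt 1.16, HISAT2 2.1.0, SAMtools, featureCounts and DESeq2 were used with hg38. Each table holds the authors' deposited raw counts per gene of 1 library, with exon coordinates, per the file headers. Neither the strand setting, nor the handling of reads with several positions, nor the annotation release is given in the sources used here. Exons of 19 members overlap another gene with counts, 16 of them on the opposite strand.

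In every table the broken lines of 1 gene, 3 of 60607, were left out. Replicates were distinct libraries, since counts of each pair differed beyond sampling (chi-square over its degrees of freedom 7.91 to 25.9). Genes were kept by filterByExpr, scaled by TMM and tested with edgeR 4.0.16 (R 4.3.3, glmQLFit and glmQLFTest, group as the only term), with p-values adjusted over all 17200 genes. CPM values are scaled by TMM. The test was checked on simulated counts with known changes in few genes, in random directions. In these data 61.6% of genes were called, so that check does not cover the scaling here. Alternatives were limma-voom (limma 3.58.1), DESeq2 1.42.0, other scalings and filters, a length offset, a fold threshold, a block for the replicate number, and omission of each library. The replicate numbers were not taken to pair libraries, since deviations of same-numbered libraries correlated at 0.02, 0.01 and 0.13.

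The members, gene lists and ratios were chosen with earlier results of these data known. Values per library were given for the 3 highest and 3 lowest fold changes of each role group. Values of non-members were given for TFEB, TFE3, MITF and TFEC and up to 4 genes per list, those of smallest adjusted p. Outside this rule, TCIRG1 was given as an isoform of subunit a, and IDUA as the hydrolase of its list that rose. ATP6AP1L, which the rule admits, rose by 1.52 on the log2 scale (SE 0.31, edgeR adjusted p = 0.00069).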

Additional observations from a re-analysis of the deposited data

How the results depend on the processing

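Over 16 alternatives, 12 members kept their call in all, 15 lost it in at least 1 and 8 passed in at least 1 only. With upper-quartile scaling the V-ATPase counts were 9 higher and 1 lower, and the medians -0.24 (hydrolases) and 0.31 (V-ATPase). DESeq2 gave a V-ATPase median of 0.13. With no filter it was 0.09, with 3 subunits and 7 members higher. A fold threshold of log2 0.5 left 3322 genes higher and 3414 lower, 3 members higher and 9 lower, 1 hydrolase higher, and 2 V-ATPase subunits higher and 1 lower. Leaving out each library gave 7 to 11 members higher, 2 to 4 hydrolases higher, 3 to 5 V-ATPase subunits higher and 1 to 2 lower, a V-ATPase median of 0.08 to 0.22, and a hydrolase median minus V-ATPase median of -0.63 to -0.44. The lowest of these were 7 members, 3 subunits and 0.08, all without control replicate 2. V-ATPase subunits called lower were 1 without control replicate 1 and without indomethacin replicate 2, and the median difference was -0.44 without indomethacin replicate 1.

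Sign changes occurred only in genes that were not called. They were CTSB (0.05 with upper-quartile scaling, 0.01 without indomethacin replicate 3, and down to -0.19 without control replicate 1), LAMP2 (0.08 with upper-quartile scaling, 0.01 with a filter of 1 CPM), ATP6V0D1 (0.04 with upper-quartile scaling), ATP6V1B2 (-0.04 with DESeq2, -0.08 with no filter, -0.05 to -0.04 without control replicate 1, control replicate 2 or indomethacin replicate 3) and MITF (-0.01 with no filter, -0.07 without indomethacin replicate 1). With the replicate number as a block, ATP6V0A1 lost its call (0.32, edgeR adjusted p = 0.057), no other member's call changed, and 5249 genes were higher and 5352 lower. CTSA, GLA, LAMP1, ATP6V0E1 and TFEB lost their calls with upper-quartile scaling, and GAA, MCOLN1 and ATP6V0A1 with DESeq2. The causes were not tested. Counting limits CTSL and ATP6V0C, and 3 libraries per group limit small changes.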
